A study of Triticum aestivum with 15 samples.

Results

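Starch fills most of the wheat endosperm, and germination depends on its breakdown. Alpha-amylases cut the internal alpha-1,4 links of starch, beta-amylases release maltose from chain ends, and alpha-glucan phosphorylase removes glucose units from chain ends as glucose 1-phosphate, using phosphate in place of water. In germinating cereals, alpha-amylases are made and secreted mainly by the aleurone layer and the scutellum, and gibberellin from the embryo is known to switch on their genes.

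The probe sets described here are 5 of the 61290 on the Affymetrix Wheat Genome Array, chosen for the enzymes they are held to measure. They comprise 3 alpha-amylase probe sets (CA719001, AL820663 and BF293263, named by their transcript accessions), the probe set of LOC543318, whose listed names are amy1 and BMY1, and 1 probe set of LOC542862, whose rice match is an alpha-glucan phosphorylase. RNA was taken from seeds of the common wheat cultivar Jimai 20, with no other genotype and no treatment beyond sterile water. The 5 groups are the dry seed (0 hours after imbibition, HAI) and seeds at 12, 24, 36 and 48 HAI, each with 3 arrays labelled as biological replicates. The seeds were submerged for the first 12 hours and then kept moist in dishes. RNA came from whole germinating seeds, so more RNA per cell and a larger share of the cells that make it cannot be told apart.

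The array table itself does not name the alpha-amylase probe sets. Each was taken by its 5 stage means, which were set against the stage values listed for that accession by the study, so their stage pattern is also what identified them. After 1 common factor per stage was taken from the other 2 accessions, each of the 3 probe sets ranked 1 of 61179, with a largest log2 deviation of 0.00181 for CA719001 (TaAffx.80145.2.S1_at), 0.0011 for AL820663 (Ta.24752.1.A1_at) and 0.00292 for BF293263 (Ta.22773.1.S1_x_at). The next-best probe sets deviated by 0.726, 0.265 and 0.664. The enzyme measured by the LOC543318 probe set (Ta.3.1.S1_at) is not settled, since amy1 is a name for an alpha-amylase and BMY1 one for a beta-amylase, and it is called amy1/BMY1 below. The manufacturer marks the BF293263 and phosphorylase (Ta.1197.1.S1_x_at) probe sets, by the ending _x_at, as holding probes that may also match other sequences. Brightness differs between probe sets for reasons other than transcript level, so each was compared only with itself.

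The arrays of a stage correlated at 0.93 to 0.969 on the log2 scale. The median intensity was 90.3 to 100.95 on the dry-seed arrays and 64.2 to 77.9 on the others, although the authors had scaled all arrays to nearly the same trimmed mean. For a glucose-6-phosphate dehydrogenase transcript, the control probes at the 3′ end over those at the 5′ end, a sign of RNA integrity, gave a ratio of 8.19 to 10.8 at 0 HAI and 23.6 to 37.1 at 48 HAI. For ubiquitin this ratio was lower, at 0.47 to 0.53 at 0 HAI and 0.70 to 0.82 at 48 HAI. It was 0.09 to 0.41 and 0.43 to 2.24 for GAPDH at these stages, and 0.47 to 1.32 and 6.26 to 11.2 for actin. The summed intensity of 13 endosperm storage protein probe sets was 19300 to 22200 on the arrays of 0 HAI and 450 to 490 on those of 48 HAI. That of 10 embryo and late-maturation probe sets was 442300 to 485400 and 21080 to 23630, and that of 31 green-seedling probe sets was 21500 to 24250 and 62660 to 67160. The green-seedling sum did not rise steadily, with 59540 to 62830 at 24 HAI and 36710 to 43170 at 36 HAI. These changes ran along the same time axis as every result below, and their part in the results was not tested.

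All 5 probe sets differed across the stages in limma's moderated F-test with Benjamini-Hochberg adjustment over 61179 probe sets, beside 47.7% of all probe sets tested. In the 3 alpha-amylases and the phosphorylase, the stage mean was lowest at 12 HAI and highest at 36 HAI, and the rise from 12 to 24 HAI passed the test in each. The rise to 36 HAI passed for CA719001 and the phosphorylase, and the fall after it for the phosphorylase alone. Among probe sets that passed the F-test, 7.21% had their lowest stage mean at 12 HAI and their highest at 36 HAI. The 3 alpha-amylases were identified by their stage values on these same arrays. Their F-tests, their changes between stages and their lowest and highest stages were thus set by that choice. The background shares, here and in the counts by step below, do not test them. The amy1/BMY1 probe set was dim at every stage, lowest at 12 HAI and highest at 48 HAI.

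**Figure D1:**
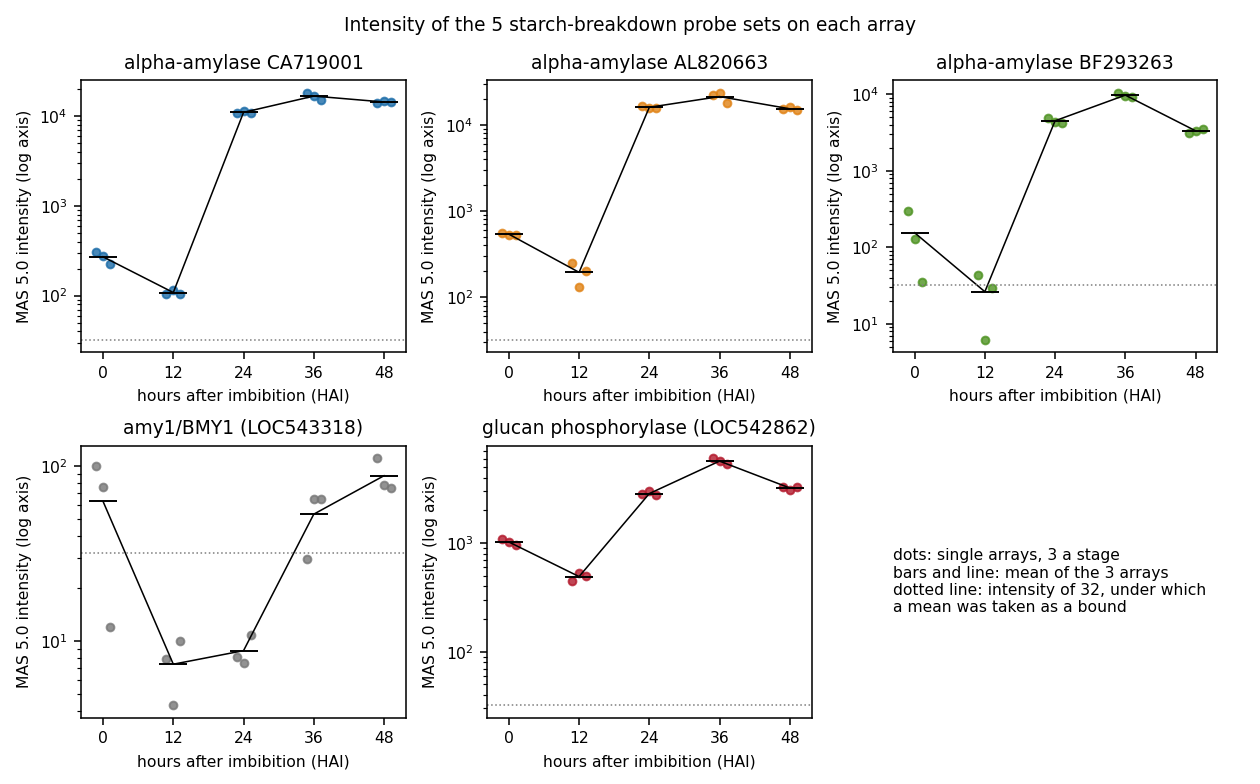
MAS 5.0 intensity (log axis) against hours after imbibition for the 5 probe sets, with 1 dot per array, 3 arrays a stage, and the stage means joined by a line. The stage means of the 3 alpha-amylases and the phosphorylase were lowest at 12 HAI and highest at 36 HAI, and amy1/BMY1 lay under the dotted line at 32 on every array of 12 and 24 HAI.

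The alpha-amylase CA719001 read 306, 279 and 227 on the dry-seed arrays and 104, 116 and 105 at 12 HAI. It read 10785, 11499 and 10745 at 24 HAI, 18258, 16704 and 15186 at 36 HAI, and 14004, 14567 and 14504 at 48 HAI. No array of a stage overlapped with those of the stage before it. The dry-seed mean was 271 ± 39.9 (SD, n = 3) and that at 12 HAI 108.3 ± 6.89, a log2 change of -1.20 (SE 0.13, adjusted p 2.67e-05 by limma). From 12 to 24 HAI the mean rose 102-fold to 11010 ± 424, a log2 change of 6.47 (SE 0.13, adjusted p 5.27e-11). Only 21 of the other probe sets tested had a larger log2 rise at this step. From 24 to 36 HAI it rose by a further 0.60 (adjusted p 0.0169) to 16716 ± 1536. This call was lost without any one of 4 arrays: 24 HAI replicate 1 (adjusted p 0.0609) or 3 (0.0659), or 36 HAI replicate 1 (0.0714) or 2 (0.0559). The change to 14358 ± 308 at 48 HAI, -0.22 with a 95% interval of -0.49 to 0.06, did not pass (adjusted p 0.384). The mean at 48 HAI was 53.1 times that of the dry seed.

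The alpha-amylase AL820663 read 560.3, 528 and 532 in the dry seed and 249, 131 and 204 at 12 HAI. At 24 HAI the arrays read 16429, 15738 and 15748, and at 36 HAI 22399, 23611 and 17759.85. At 48 HAI they read 15129, 15934 and 14959.8, within or below the range at 24 HAI. The means fell from 540 ± 17.4 to 195 ± 59.5 between 0 and 12 HAI (log2 change -1.44, SE 0.19, adjusted p 0.000142) and rose 81.9-fold to 15972 ± 396 at 24 HAI (log2 change 6.29, SE 0.19, adjusted p 5.03e-10). The rise was exceeded by 26 other probe sets. The steps to 21257 ± 3088 at 36 HAI (0.40, adjusted p 0.325) and to 15341 ± 520 at 48 HAI (-0.46, adjusted p 0.166) did not pass after adjustment, although every array at 36 HAI lay above every array at 24 and 48 HAI. At 48 HAI the mean was 28.4 times that of the dry seed.

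The alpha-amylase BF293263 was the least even of the 3 before the rise. Its dry-seed arrays read 302, 129 and 35.75, and its 12 HAI arrays 43.0, 6.14 and 29.9, so that these stages overlapped. It then read 4964, 4331 and 4293 at 24 HAI, 10569, 9688 and 9159.6 at 36 HAI, and 3137, 3335 and 3575 at 48 HAI, with no overlap between these 3 stages. The fall from 156 ± 135 to 26.3 ± 18.7 between 0 and 12 HAI passed (log2 change -1.77, SE 0.52, adjusted p 0.027), but not without 0 HAI replicate 1 (-1.15, adjusted p 0.0852), 0 HAI replicate 2 (-1.71, 0.0665) or 12 HAI replicate 2 (-1.36, 0.107). An intensity of 32 was taken as the floor of measurement, and folds against a stage mean beneath it are bounds, from mean log2 intensities with lower values set to 32. On that basis BF293263 rose at least 128-fold to 4530 ± 377 at 24 HAI, with a log2 change of 6.86 (SE 0.52, adjusted p 6.37e-07) that 12 other probe sets exceeded. The means at 36 HAI, 9806 ± 712, and at 48 HAI, 3349 ± 220, differed from those of the preceding stage by 1.11 (adjusted p 0.316) and -1.54 (adjusted p 0.0835). The residual spread of a probe set was estimated over all stages, so the uneven dry-seed and 12 HAI arrays of BF293263 also widened the error at its bright stages. Without 0 HAI replicate 1 or 3, the step from 36 to 48 HAI passed, with adjusted p of 0.0246 and 0.0152.

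A probe set that shares the sequence cluster number of BF293263, also marked _x_at, was picked for this comparison after its values were seen. Its means were 341 ± 23.1, 98.3 ± 65.7, 6828 ± 302, 12782 ± 938 and 5746 ± 136 from 0 to 48 HAI. Its fall by 12 HAI (log2 change -1.82, adjusted p 0.00147), its rise by 24 HAI (6.08, adjusted p 3.47e-08) and its fall after 36 HAI (-1.15, adjusted p 0.042) passed. The rise between 24 and 36 HAI (0.90, adjusted p 0.164) did not. The third of the cluster was dim, with a mean of 3.08 in the dry seed and 60.4 at 36 HAI. Both may pick up some of the same transcripts as BF293263.

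The phosphorylase gene LOC542862 read 1083, 1021 and 964 in the dry seed and 447, 531 and 496 at 12 HAI. It read 2811, 2995 and 2753 at 24 HAI, 6059, 5649 and 5325 at 36 HAI, and 3292, 3095 and 3249 at 48 HAI. No array overlapped between successive stages. It was the only one of the 5 probe sets whose change passed at all 4 successive steps, a pattern of fall, rise, rise and fall that 85 of all probe sets tested (0.139%) had. The mean fell from 1023 ± 59.6 to 491 ± 42.3 between 0 and 12 HAI (log2 change -1.04, SE 0.11, adjusted p 2.98e-05). It rose 5.81-fold to 2853 ± 127 at 24 HAI (2.50, adjusted p 8.41e-09) and 1.99-fold to 5678 ± 368 at 36 HAI (0.99, adjusted p 0.000237). It fell to 3212 ± 104 at 48 HAI (-0.82, adjusted p 0.000788), 3.14 times the dry-seed mean. The arrays at 48 HAI lay above those at 24 HAI, by a log2 change that did not pass (0.17, 95% interval -0.07 to 0.42, adjusted p 0.428).

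The second probe set of the phosphorylase gene gave the same 4 calls. Its means were 753 ± 84.2, 401 ± 20.6, 2004 ± 170, 4078 ± 131 and 2147 ± 120 from 0 to 48 HAI. Its log2 changes at the 4 successive steps were -0.88, 2.28, 1.02 and -0.92, with adjusted p of 0.000193, 3.1e-08, 0.000298 and 0.000554. The probes of both probe sets come from 1 transcript, so they are not independent measures of the gene.

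The amy1/BMY1 probe set LOC543318 read 100.6, 75.7 and 12.1 in the dry seed, 7.85, 4.285 and 9.99 at 12 HAI, and 8.14, 7.51 and 10.8 at 24 HAI. It read 29.3, 64.8 and 65.2 at 36 HAI and 111, 78.4 and 74.7 at 48 HAI. The 12 and 24 HAI arrays overlapped with each other and lay under all others, while the dry-seed range spanned that at 36 HAI. The fall from 62.8 ± 45.7 to 7.37 ± 2.88 between 0 and 12 HAI passed (log2 change -1.53, SE 0.43, adjusted p 0.0225). No bound is given for its fold, since 0 HAI replicate 3 also read under 32. The fall did not pass without 0 HAI replicate 1 (-1.13, adjusted p 0.0847) or 2 (-1.30, 0.077) or without 12 HAI replicate 1 (-1.54, 0.0544) or 2 (-1.43, 0.0706). The step from 12 to 24 HAI was 0.09 (adjusted p 0.923), with a 95% interval of -0.84 to 1.02. The step to 53.1 ± 20.6 at 36 HAI, 1.43, missed the threshold (adjusted p 0.0843) and passed without 0 HAI replicate 3 (adjusted p 0.00457). Between 24 and 48 HAI the mean rose at least 2.71-fold to 88.1 ± 20.1 (log2 change 2.05, SE 0.43, adjusted p 0.00652), beside 6.52% of all probe sets tested. Between 0 and 48 HAI the change was 0.62 (adjusted p 0.278), and -0.01 (adjusted p 0.986) without 0 HAI replicate 3, the dim dry-seed array.

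Step by step, all 5 probe sets fell from 0 to 12 HAI, beside 12.8% of all probe sets tested. The median log2 change of the 5 was -1.44, and that of all probe sets was -0.23. This fall depended on how arrays were scaled to each other. With arrays scaled to the spiked hybridization controls, the log2 changes were -0.57 for CA719001, -0.78 for AL820663, -1.20 for BF293263, -1.10 for amy1/BMY1 and -0.37 for the phosphorylase, and none passed. With arrays scaled to the spiked poly-A controls they were -0.11, -0.30, -0.86, -0.78 and 0.13, and again none passed. The median of all probe sets was 0.22 and 0.55 under these scalings, so each of the 5 still lay below it.

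From 12 to 24 HAI 4 of the 5 rose, beside 13.3% of all probe sets, and the 4 rises passed under every scaling run. From 24 to 36 HAI 2 of 5 rose (CA719001 and the phosphorylase), beside 2.41%. From 36 to 48 HAI 1 of 5 fell (the phosphorylase), beside 5.28%. Of the 20 combinations of a probe set and a successive step, 12 passed, with the shares of all probe sets given above for each step. From 0 to 48 HAI 4 of 5 rose, beside 17%, and the log2 changes were 5.66 for CA719001 (adjusted p 1.55e-11), 4.79 for AL820663 (adjusted p 9.06e-10), 4.65 for BF293263 (adjusted p 1.07e-05) and 1.64 for the phosphorylase (adjusted p 1.3e-07).

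**Figure D2:**
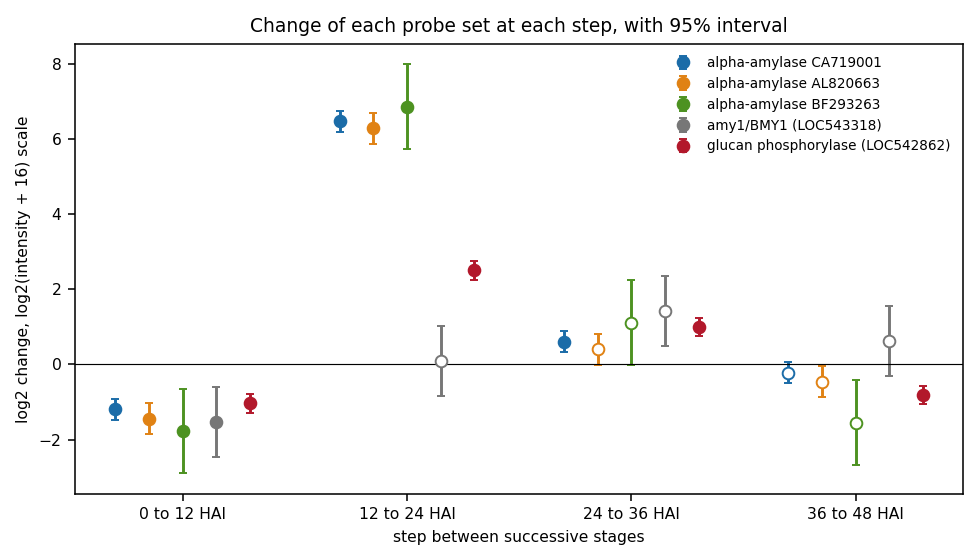
Log2 change, on the log2(intensity + 16) scale, of each of the 5 probe sets at the 4 successive steps, with the 95% interval from the fit of 3 arrays a stage. Filled dots passed at an adjusted p under 0.05 and open dots did not. The 3 alpha-amylases rose by 6.29 to 6.86 from 12 to 24 HAI, against 2.50 for the phosphorylase and 0.09 for amy1/BMY1.

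Whether 2 probe sets changed by different amounts was tested by subtracting the log2 values of one from those of every probe set on the same array, so that the scaling of an array cancels up to the added 16. The 10 pairs were compared at 4 steps, 40 tests in all, with p adjusted over all probe sets for each reference and step. The noise of the reference probe set is shared by all rows of such a fit, which makes moderated p too small where the reference is noisy. Each difference was therefore also read with ordinary variances and with either member as the reference, a choice made after the data were seen, and is called here only where all readings passed. On that basis 0 of the 10 pairs differed by 12 HAI, 7 at the next step, 1 between 24 and 36 HAI and 1 between 36 and 48 HAI. At the first step the moderated limma fit gave 0 and ordinary variances 1. Against CA719001, AL820663, BF293263 and amy1/BMY1 as references, the moderated fit called 55.5%, 64.6%, 51.3% and 44.3% of all probe sets different at the first step, and 99.9%, 99.9%, 99.9% and 7.17% at the next. It called 30.1%, 3.37%, 1.38% and 65% different between 24 and 36 HAI, and 9.54%, 9.77%, 54.7% and 1.41% between 36 and 48 HAI.

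The phosphorylase rose less than each alpha-amylase from 12 to 24 HAI. The difference in log2 change was -3.97 from CA719001 (SE 0.13, adjusted p 2.48e-12), -3.78 from AL820663 (adjusted p 1.13e-09) and -4.35 from BF293263 (adjusted p 2.07e-10, or 1.52e-05 with ordinary variances). It rose more than amy1/BMY1, by 2.41 (SE 0.58, adjusted p 0.00276), but this call was lost with a pseudocount of 1 (2.26, adjusted p 0.187), and amy1/BMY1 read under 32 at both stages. Since nearly all probe sets differed from each alpha-amylase at this step, the difference is not particular to the phosphorylase. The phosphorylase then rose more than CA719001 from 24 to 36 HAI (0.39, SE 0.13, adjusted p 0.0437) and fell more from 36 to 48 HAI (-0.60, SE 0.13, adjusted p 0.0149). The first of these was lost when any one of 12 arrays was left out, and the second without 48 HAI replicate 2 (adjusted p 0.063) or 3 (0.0516).

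Among the 3 alpha-amylases, none of the 12 tests of a difference passed, with the moderated or with ordinary variances, and the differences were between 0.19 and 1.33 in size. From 12 to 24 HAI, AL820663 minus CA719001 was -0.19 (95% interval -0.67 to 0.30), BF293263 minus CA719001 was 0.38 (-0.63 to 1.40) and BF293263 minus AL820663 was 0.57 (-0.39 to 1.54). From 36 to 48 HAI, BF293263 minus CA719001 was -1.33 (-2.35 to -0.31, adjusted p 0.101) and BF293263 minus AL820663 was -1.09 (-2.05 to -0.12, adjusted p 0.134). Both passed with a pseudocount of 64 in place of 16, which gives the dim early arrays less weight in the spread (adjusted p 0.00679 and 0.0146). For the pairs with BF293263 the intervals leave room for differences of more than 2-fold, so the 3 are not shown to change alike. For AL820663 minus CA719001 they lay between -0.73 and 0.30 at every step, which leaves room only for differences under 2-fold.

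The share of its own highest stage mean that each probe set had reached gives the timing on a linear scale, with no test. CA719001 stood at 1.62% of its peak in the dry seed, 0.648% at 12 HAI, 65.9% at 24 HAI and 85.9% at 48 HAI. AL820663 stood at 2.54%, 0.917%, 75.1% and 72.2% at the same stages, and BF293263 at 1.59%, 0.269%, 46.2% and 34.2%. The phosphorylase began far higher on its own scale, at 18.0% in the dry seed and 8.65% at 12 HAI, and stood at 50.2% at 24 HAI and 56.6% at 48 HAI. For these 4 the peak was 36 HAI. The amy1/BMY1 probe set stood at 71.3% in the dry seed, 8.37% at 12 HAI, 10.005% at 24 HAI and 60.3% at 36 HAI, with its peak at 48 HAI. Its dry-seed share had an SD of 51.8 percentage points, so that share is poorly fixed. The means of amy1/BMY1 at 12 and 24 HAI and of BF293263 at 12 HAI lay under the floor of measurement. The shares at those stages show that the signal was low, but not how low. In these stage means, AL820663 and CA719001 stood nearer their peak at 24 and 48 HAI than BF293263 and the phosphorylase did. The tests of differences in change on either side of 36 HAI told only the phosphorylase and CA719001 apart among these 4. Both of those calls were lost when certain single arrays were left out, so the order of the 4 is not established.

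**Figure D3:**
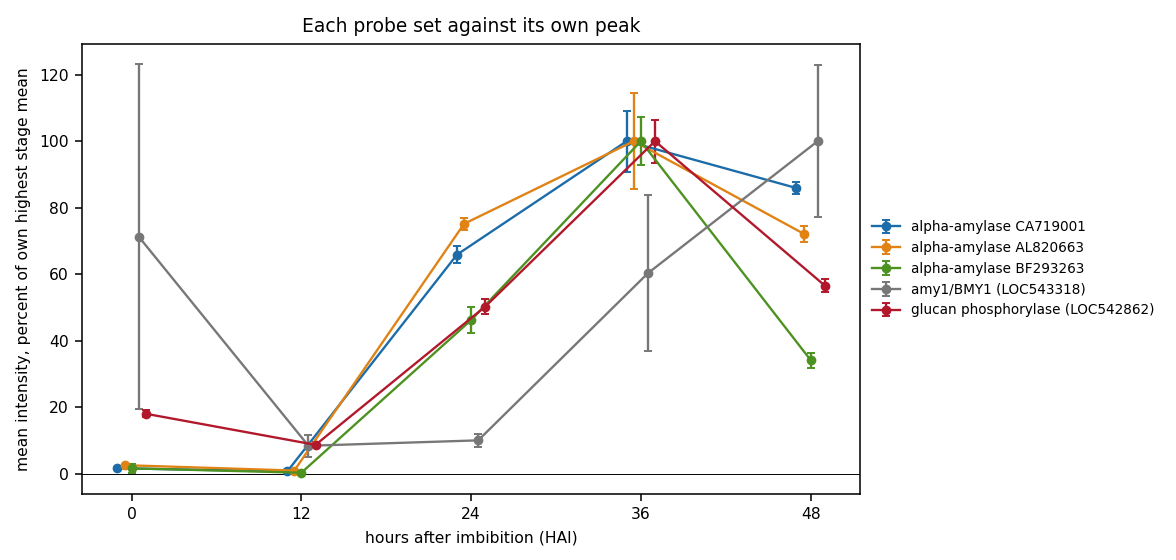
Mean intensity at each stage as a percent of the highest stage mean of the same probe set, against hours after imbibition, with bars for the SD of 3 arrays on the same scale. CA719001 and AL820663 held 85.9% and 72.2% of the peak at 48 HAI, the phosphorylase 56.6% and BF293263 34.2%.

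Across the 15 arrays the log2 values of CA719001 and AL820663 had a Pearson r of 0.996, those of BF293263 with CA719001 and AL820663 0.977 and 0.983, and those of the phosphorylase with the 3 alpha-amylases 0.965 to 0.971. The r of amy1/BMY1 with the other 4 was 0.33 to 0.431. The arrays fall into 5 stages, and any probe set with a large rise between 12 and 24 HAI correlates highly with these. At r over 0.95, 1327 probe sets matched CA719001, 1079 AL820663, 614 BF293263, 455 the phosphorylase and 0 amy1/BMY1. Among the 1271 probe sets with a gene symbol that were compared, LOC100037556 (r 0.998), LOC542807 (0.996) and LOC543067 (0.996), a phosphoethanolamine methyltransferase of membrane lipid synthesis, were nearest to CA719001. LOC100037556 with 2 probe sets (0.992 each) and LOC543067 (0.992) were nearest to AL820663, and LOC543267 (0.987), LOC543090 (0.987) and LOC100037556 (0.987) to BF293263. The nearest to the phosphorylase was its own second probe set (0.997), then LOC543498 (0.986) and LOC100037556 (0.985). The nearest to amy1/BMY1 were 2 probe sets of LOC543422 (0.829 and 0.803) and 1 of LOC543448 (0.797).

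Genes that act around starch breakdown were read from lists of named probe sets. Gibberellin 20-oxidases, which make precursors of active gibberellin, had 4 probe sets of 3 genes. From 12 to 24 HAI 3 of the 4 rose and 0 fell, beside rises in 13.3% of all probe sets, with a median log2 change of 1.87 against -0.06 for all probe sets. By 48 HAI all 4 were higher than in the dry seed, beside 17%, with a median of 2.36 against -0.30. The 4 were named by the smallest F-test p over these same stages. Their counts and medians are thus partly fixed by that choice and do not test whether such genes change more than others. LOC543325 (GA20ox1d) passed at the first step on 1 of its 2 probe sets. That probe set had means of 27.3 ± 3.07, 95.6 ± 16.6, 357 ± 18.0, 358 ± 27.1 and 233 ± 49.1 from 0 to 48 HAI. It was already higher at 12 HAI than in the dry seed (log2 change 1.36, adjusted p 5.75e-05). All 5 starch-breakdown probe sets had fallen by then, but none of these falls passed with arrays scaled to spiked controls. The first step passed for 1 of the 4, with a rise, beside 10.1% of all probe sets tested. The other probe set of LOC543325 gave 0.47 at that step (adjusted p 0.386), and LOC543327 gave 1.22 (adjusted p 0.0519). LOC543326 (GA20ox1b) rose at least 3.9-fold from 12 to 24 HAI (log2 change 2.21, adjusted p 0.000174), from 21.7 ± 21.6 to 145 ± 41.9. LOC543327 (GA20ox1a) had a mean of 74.7 ± 28.0 at 12 HAI and 113 ± 37.2 at 24 HAI (0.52, adjusted p 0.432), and its rise of 2.33 from 0 to 48 HAI passed (adjusted p 0.000573).

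Amylase inhibitors are small seed proteins that bind alpha-amylases, mostly those of insects, and some belong to the amylase/trypsin inhibitors. Of 5 probe sets of 3 genes, 3 fell and 0 rose from 12 to 24 HAI, beside 14.8% of all probe sets tested, and 4 fell from 0 to 48 HAI, beside 23.8%. The list was chosen with earlier results of these data known, so these counts do not test whether such genes change more than others. The median change from 0 to 48 HAI was -1.84. LOC542981 (WMAI-1), a monomeric alpha-amylase inhibitor, had means of 456 ± 31.7 in the dry seed, 417 ± 44.2 at 12 HAI, 212 ± 41.1 at 24 HAI and 114 ± 19.797 at 48 HAI, and its fall over the whole time passed (log2 change -1.87, adjusted p 1.07e-05). LOC543281 (ATI) fell at least 6.69-fold over the same time, from 271 ± 12.1 to 28.3 ± 31.7 (log2 change -2.92, adjusted p 8.67e-05). LOC543286 (ATI) fell on 2 of its 3 probe sets. The third gave 0.06 (adjusted p 0.955). The storage protein probe sets, which mark the endosperm, fell over the same stages, and their part in this result was not tested.

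Starch synthesis had 4 probe sets of 3 genes, and 0 of the 4 passed from 0 to 48 HAI in limma, beside 17% higher and 23.8% lower among all probe sets. At an unadjusted p under 0.05 it was 2 of the 4, and the median log2 change was 0.13. Starch synthesis probe sets that did not pass the F-test were named after their values were seen. These counts are thus partly fixed by that choice. LOC543299 (AGP-S), the small subunit of ADP-glucose pyrophosphorylase, which makes the sugar donor for starch, stayed between 2750 and 3292 in its stage means and did not pass the F-test (adjusted p 0.134). Both probe sets of LOC100037637, whose rice match is a large subunit of the same enzyme, passed the F-test (adjusted p 0.0244 and 0.00337). Their changes from 0 to 48 HAI had opposite signs. One had means of 1398 ± 201 in the dry seed, 818 ± 113 at 36 HAI and 1015 ± 176 at 48 HAI, a log2 change of -0.46 over the whole time (adjusted p 0.0744). The other, marked _x_at, had means of 643 ± 56.4 in the dry seed, 1005 ± 184 at 12 HAI, 497 ± 60.7 at 36 HAI and 876 ± 147 at 48 HAI, a change of 0.43 (adjusted p 0.0929). It rose by 12 HAI (0.62, adjusted p 0.0338), fell by 24 HAI (-0.80, adjusted p 0.00595) and rose between 36 and 48 HAI (0.79, adjusted p 0.0193), and these were the calls of the list at successive steps. LOC543395 (GBSS), the granule-bound starch synthase, read under 32 in every stage mean.

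**Figure D4:**
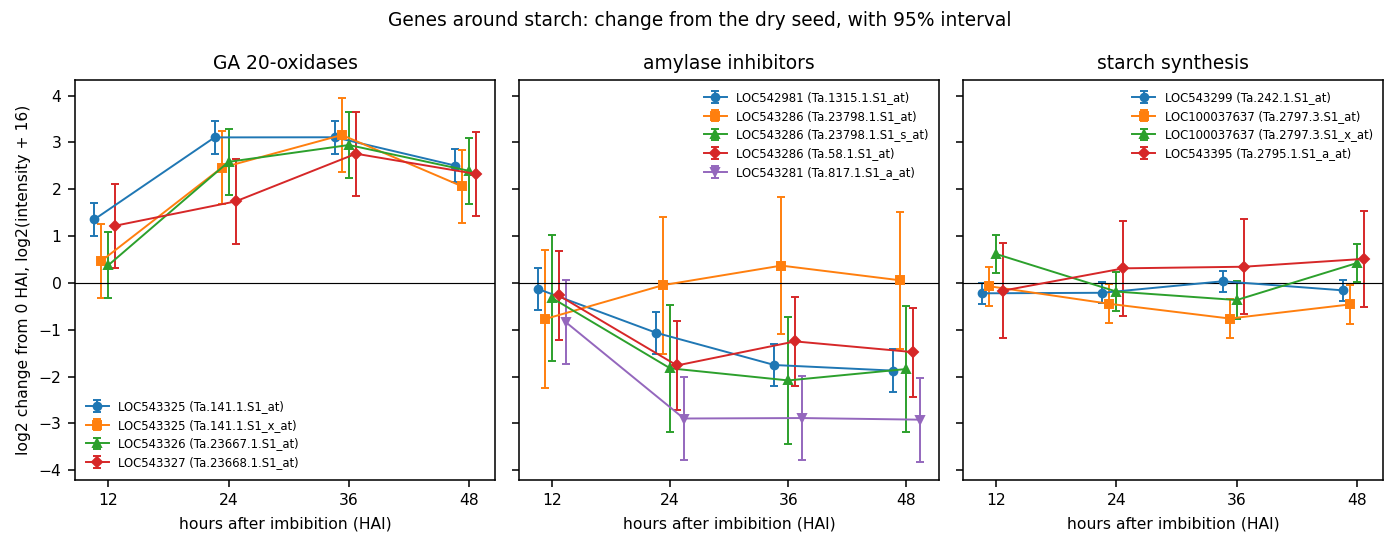
Log2 change from the dry seed, on the log2(intensity + 16) scale, against hours after imbibition for probe sets of gibberellin 20-oxidases (4), amylase inhibitors (5) and starch synthesis (4), with 95% intervals from the fit of 3 arrays a stage. At 48 HAI the 4 GA 20-oxidase probe sets, named by the smallest F-test p over these stages, had risen, with a median of 2.36. Of the 5 inhibitor probe sets 4 had fallen, and 0 of the 4 starch synthesis probe sets passed. Both of these lists were chosen with earlier results of these data known, so the counts do not test them against other genes.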

How the data were processed

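Total RNA of 15 seed samples was hybridized by the authors to 1-colour Affymetrix Wheat Genome Arrays. The deposited values are MAS 5.0 intensities on a linear scale (the submitters' processing notes name MAS5), scaled by the authors to a common trimmed mean. No image data were reprocessed, and the array number limits the precision. Of 61290 probe sets, 111 manufacturer controls were set aside and 61179 tested. After 16 was added, log2 values entered a limma model (limma 3.58.1, R 4.3.3) of 5 stage means, empirical Bayes variances and 10 residual degrees of freedom. A moderated F-test and 10 pairwise contrasts were each adjusted over all probe sets (Benjamini-Hochberg, threshold 0.05). All tests are two-sided, SE are from limma and SD are over 3 arrays. Folds are ratios of mean intensities, while log2 changes are on the log2(intensity + 16) scale, which understates changes of dim probe sets. The study describes the replicates as independently grown material.

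In the fit in which a reference member was subtracted, the prior degrees of freedom were 2.47 for CA719001, 4.18 for AL820663, infinite for BF293263, 60.1 for LOC543318 and 2.25 for LOC542862, against 1.9 in the stage fit. Both fits were tested on simulated data for 24 against 12 HAI. The stage fit recovered 37 of 100 2-fold and 65 of 100 4-fold changes, with 4 false calls. With an unchanged CA719001 as the only reference simulated, the fit of differences recovered 19 of 100 and 68 of 100, with 3 false calls. A change that did not pass is thus not shown to be absent. Symbols came from the array's probe table, which names 1273 probe sets and leaves 59906 without a name, and from RefSeq gene names. The members and lists were chosen with earlier results of these data known. The text names the members, up to 8 other starch probe sets and 4 gibberellin probe sets by the smallest F-test p, with starch synthesis probe sets that did not pass named after their values were seen, and the 3 nearest probe sets by r. Replicate numbers did not pair samples (30 deviation correlations of -0.03 to 0.051). Alternatives were other pseudocounts, array scalings, a filter on dim probe sets, an intensity trend, a replicate block, ordinary variances and leaving out each array.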

Additional observations from a re-analysis of the deposited data

How the results depend on the processing

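The 5 F-tests passed under every alternative run, and the rise from 12 to 24 HAI and the change from 0 to 48 HAI of the 3 alpha-amylases and the phosphorylase kept direction and call under all of them. The early fall did not. Scaled to hybridization controls, the 0 to 12 HAI changes of CA719001 (-0.57), AL820663 (-0.78), BF293263 (-1.20), LOC543318 (-1.10) and LOC542862 (-0.37) lost their calls, as did the 24 to 36 HAI rise of CA719001 (0.75). Scaled to poly-A controls, the same 0 to 12 HAI changes were -0.11, -0.30, -0.86, -0.78 and 0.13, a reversal for LOC542862. Steps then passing were 24 to 36 HAI for AL820663 (0.89), BF293263 (1.60) and LOC543318 (1.93), 36 to 48 HAI for CA719001 (-0.89), AL820663 (-1.13) and BF293263 (-2.22), and 0 to 48 HAI for LOC543318 (1.42), while LOC542862 from 24 to 48 HAI turned to -0.0127. With equal array medians CA719001 from 24 to 36 HAI (0.57) and BF293263 from 0 to 12 HAI (-1.44) lost their calls, and with quantile normalization BF293263 (-1.58) and LOC543318 (-1.22) from 0 to 12 HAI did. A pseudocount of 64 added CA719001 from 24 to 48 HAI (0.38) and BF293263 from 36 to 48 HAI (-1.53). An intensity trend added CA719001 from 24 to 48 HAI (0.38), AL820663 (-0.46) and BF293263 (-1.54) from 36 to 48 HAI. The causes were not tested beyond the construction of each alternative.

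Leaving out 1 array gave ranges of -2.46 to -1.15 (BF293263) and -2.15 to -1.13 (LOC543318) from 0 to 12 HAI, 0.53 to 0.67 (CA719001) and 1.29 to 1.71 (LOC543318) from 24 to 36 HAI, -1.59 to -1.49 (BF293263) from 36 to 48 HAI, 0.37 to 0.41 (CA719001) from 24 to 48 HAI, -0.007 to 0.17 (LOC543318) from 12 to 24 HAI and -0.0074 to 1.02 (LOC543318) from 0 to 48 HAI. The number of pairs that differed, 0, 7, 1 and 2 by step in the moderated fit, ranged over 0 to 5, 7 to 8, 0 to 2 and 1 to 6. With a pseudocount of 1 the last 2 were 0 and 1, with 64 the last was 6, and with ordinary variances the first was 1. From 12 to 24 HAI, BF293263 minus CA719001 turned to -0.32 and BF293263 minus AL820663 to -0.29 with a pseudocount of 64. Without single arrays, AL820663 minus CA719001 ranged from -0.47 to 0.0271 and BF293263 minus CA719001 from -0.0711 to 0.71. The replicate block, with numbers that do not pair the samples, left 0 pairs from 24 to 36 HAI (LOC542862 minus CA719001, 0.39, adjusted p 0.0526) and changed no other call. Intensities under 32 limit LOC543318 and the 12 HAI values of BF293263.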
